A study of Homo sapiens with 32 samples.

Results

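The genes described here are the 5 subunits of the transcription factor NF-κB (NFKB1, NFKB2, REL, RELA and RELB) and 5 genes that restrain its pathway or are induced by it (NFKBIA, NFKBIE, NFKBIZ, TNFAIP3 and BIRC3). They were chosen by name, 10 of the 35587 gene symbols in the deposited expression matrix. All 10 were among the 16824 genes that passed the filter on low values, which asked for 10 or more normalized counts in 4 or more libraries. The cells were U2OS, a human osteosarcoma line with wild-type p53, and derivatives edited with CRISPR-Cas9. The parental line carried p53 WT/WT (called WT below). The edited lines had no p53 (KO), or carried the p53 mutation A347D on one allele (p53 WT/A347D, called HET) or on both (p53 A347D/A347D, called HOM). Each genotype was exposed for 24 h to the solvent DMSO or to 20 µM etoposide, a topoisomerase II poison that leaves DNA double-strand breaks. This gave 8 groups of 4 libraries from separate plates, 32 libraries in all. The number of clones behind each genotype was not given in the sources used here, so genotype and cell line cannot be told apart, and p-values measure the spread between plates.

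NF-κB proteins bind DNA as dimers at short sites called κB sites. In resting cells IκB proteins such as IκBα hold most dimers in the cytoplasm. The IκB kinase complex marks IκB for destruction after signals such as inflammatory cytokines or DNA breaks, which reach it through ATM and NEMO. Several products of the induced genes then shut the pathway down again, so the mRNAs of IκBα and A20 (encoded by TNFAIP3) are common readouts of NF-κB activity. RELA with p50, the product of NFKB1, carries the canonical branch, and RELB with p52, the product of NFKB2, carries the non-canonical branch.

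Poly-A RNA sequencing gave 18253770 to 24186765 counts per library, except for 8051382 in HET etoposide replicate 2. The p53 target CDKN1A rose by 2.89 (log2) after etoposide in WT, 1.54 in KO, 3.53 in HET and 1.34 in HOM cells. MDM2, the second check of damage, rose by 2.63, 0.82, 2.24 and 2.35. Without HOM DMSO libraries 2, 3 and 4 the HOM rises were 1.90 for CDKN1A and 1.23 for MDM2. HOM DMSO libraries 2, 3 and 4 stood apart from library 1: mitochondrially encoded mRNAs took 20.7% to 21.9% of their counts against 12.5%, and the authors' size factors were 0.471 to 0.669 against 0.954. Changes and counts that rest on HOM cells in DMSO are therefore given with and without these 3 libraries, while the orders of levels and the similarity of patterns use all 4. Scaling by total counts in place of the authors' size factors moved the median of all genes by more than 0.1 (log2) in several comparisons, to 0.28, 0.35, 0.20 and 1.13 for the etoposide response of WT, KO, HET and HOM cells. It also changed the split of rising and falling genes, in HOM cells from 6256 and 4788 to 10595 and 1010. Osteoblast-lineage markers differed widely in level. SPARC stood at 18530 or more normalized counts, COL1A1 at 19520 or more and RUNX2 at 300.3 or more in every library. ALPL reached at most 207.7, COL1A2 at most 54.19 and BGLAP at most 26.05. The bone matrix gene IBSP was at 0 in all 4 DMSO groups, and SP7 was not in the matrix.

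Promoter sequences are shown for 5 of the genes as examples. The first 4 rose after etoposide in at least 3 genotypes, and the fifth was not called in WT, KO or HET cells. REL and NFKB2 also rose in at least 3 genotypes, and NFKB1 was also not called in WT, KO or HET cells. Their windows are not printed, but κB matches in each of them are described below. Each printed sequence is a 300-base RefSeq window (GRCh38.p14) from 250 bases before a transcription start to 50 bases from it, written 5′ to 3′ on the gene's strand. Capitals mark matches to the κB consensus on either strand, the family's general 10-base site. The windows are NFKBIA at chr14:35404700-35404999 on the minus strand, TNFAIP3 at chr6:137867009-137867308, BIRC3 at chr11:102317234-102317533 and the first start of NFKBIZ at chr3:101827740-101828039, these 3 on the plus strand, and the second start of RELA at chr11:65662867-65663166 on the minus strand.
NFKBIA: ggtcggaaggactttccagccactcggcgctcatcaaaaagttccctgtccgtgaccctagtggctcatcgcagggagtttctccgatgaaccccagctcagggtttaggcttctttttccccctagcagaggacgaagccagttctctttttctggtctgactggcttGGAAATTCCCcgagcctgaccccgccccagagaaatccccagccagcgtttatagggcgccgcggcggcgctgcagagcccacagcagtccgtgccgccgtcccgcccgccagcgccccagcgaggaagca
TNFAIP3: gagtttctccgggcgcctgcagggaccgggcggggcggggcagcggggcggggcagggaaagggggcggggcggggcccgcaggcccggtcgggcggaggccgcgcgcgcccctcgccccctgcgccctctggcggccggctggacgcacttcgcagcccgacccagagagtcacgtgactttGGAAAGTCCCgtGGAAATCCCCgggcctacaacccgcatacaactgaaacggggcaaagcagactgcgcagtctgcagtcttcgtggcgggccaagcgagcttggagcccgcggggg
BIRC3: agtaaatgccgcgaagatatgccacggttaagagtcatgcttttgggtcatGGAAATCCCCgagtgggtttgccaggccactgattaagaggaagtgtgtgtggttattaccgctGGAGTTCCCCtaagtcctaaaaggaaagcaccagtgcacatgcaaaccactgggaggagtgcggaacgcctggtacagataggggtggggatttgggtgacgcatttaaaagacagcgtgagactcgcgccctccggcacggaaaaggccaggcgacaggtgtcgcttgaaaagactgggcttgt
NFKBIZ: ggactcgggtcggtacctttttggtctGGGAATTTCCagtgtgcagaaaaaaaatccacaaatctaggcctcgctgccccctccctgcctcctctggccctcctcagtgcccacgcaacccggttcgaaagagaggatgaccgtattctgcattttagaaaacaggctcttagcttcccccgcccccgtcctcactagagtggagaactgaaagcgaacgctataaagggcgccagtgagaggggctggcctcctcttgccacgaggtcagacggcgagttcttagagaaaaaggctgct
RELA: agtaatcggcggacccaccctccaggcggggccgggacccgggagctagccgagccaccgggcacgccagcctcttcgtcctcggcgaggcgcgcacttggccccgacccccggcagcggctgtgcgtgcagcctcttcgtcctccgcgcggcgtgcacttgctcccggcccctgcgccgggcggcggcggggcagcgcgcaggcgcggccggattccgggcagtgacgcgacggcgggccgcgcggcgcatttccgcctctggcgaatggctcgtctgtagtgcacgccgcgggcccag

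The RefSeq table held 13 windows for 8 of the 10 genes, and none was read for RELB or NFKBIE. A κB consensus match was present in 9 of the 13 windows and in 7 of the 8 genes, RELA being the exception. Among all 35116 promoter windows of the same length in the table, 5.91% held such a match. A narrower form, GGGNNTTTCC on either strand, which overlaps the consensus, was present in 8 of the 13 windows and in the same 7 genes, against 1.91% of all windows. TNFAIP3 held a tandem pair, from 67 to 58 and from 55 to 46 bases before the start, and the single match of NFKBIA lay 81 to 72 bases before it. BIRC3 had matches further out, at 199 to 190 and 135 to 126 bases. Among the subunit genes, NFKB1 held GGGAATTTCC 49 to 40 bases before its first start, REL held GGGAAATTCC 47 to 38 bases before its start, and NFKB2 held GGGACTTTCC 21 to 12 bases before the third of its starts. The AP-1 site TGANTCA was in none of the 13 windows and in 7.71% of all windows. A match to these letters is a description of the sequence and does not show that a factor binds there.

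**Figure D1:**
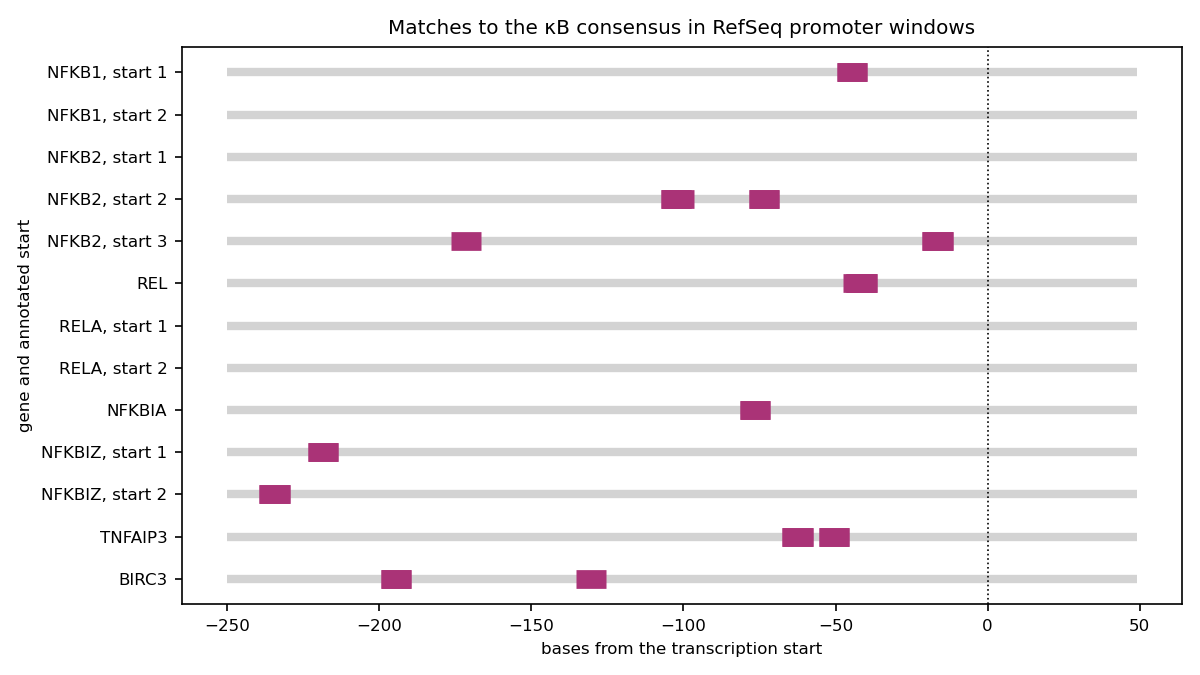
Positions of κB consensus matches (purple blocks) in the 13 RefSeq promoter windows of 8 genes (grey bars). The x axis gives bases from the transcription start (dotted line), and every match lies before the start. The tandem pair of TNFAIP3 lies within 67 bases of the start, and both RELA windows hold no match.

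Etoposide raised the mRNA of most of these genes in WT, KO and HET cells. In WT cells 8 of the 10 rose and 0 fell, where rose and fell mean an adjusted p below 0.05 and a change of at least 1.5-fold (limma). Over all genes tested in that comparison 20.1% rose and 14.9% fell. In KO cells 7 rose (18.1% of all genes) and in HET cells 8 rose (17.5%), with 0 falling in either (14.5% and 12.7% of all genes). At an unadjusted p below 0.05 no member was lower in WT, KO or HET cells, and voom on the recovered counts gave the same counts of 8, 7 and 8 called members. In HOM cells 5 rose and 1 fell (37.2% and 28.5% of all genes). Without HOM DMSO libraries 2, 3 and 4, 7 rose and 0 fell (20.9% and 17.3%). All 4 etoposide libraries lay on one side of all 4 DMSO libraries for 9 of the 10 genes in WT, 8 in KO, 9 in HET and 6 in HOM cells, where 51.6%, 54.2%, 50.1% and 59.7% of all genes did (the HOM count is at that background). HOM DMSO library 1 alone lay outside the range of the 4 HOM etoposide libraries for 9 of the 10 genes, as it did for 81.4% of all genes. REL, NFKBIA, TNFAIP3 and BIRC3 rose in all 4 genotypes, and 7.48% of all tested genes did so. Without the 3 HOM DMSO libraries RELB and NFKBIE joined them, which made 6 (7.17% of all genes). The median change of the 10 genes was 1.17 (log2) in WT, 0.88 in KO, 1.15 in HET and 0.58 in HOM cells (1.02 without the 3 libraries), beside medians of 0.05, 0.05, 0.01 and 0.16 (0.06 without the 3) over all genes. These are bulk libraries, so more cells with a transcript and more transcript per cell cannot be told apart.

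**Figure D2:**
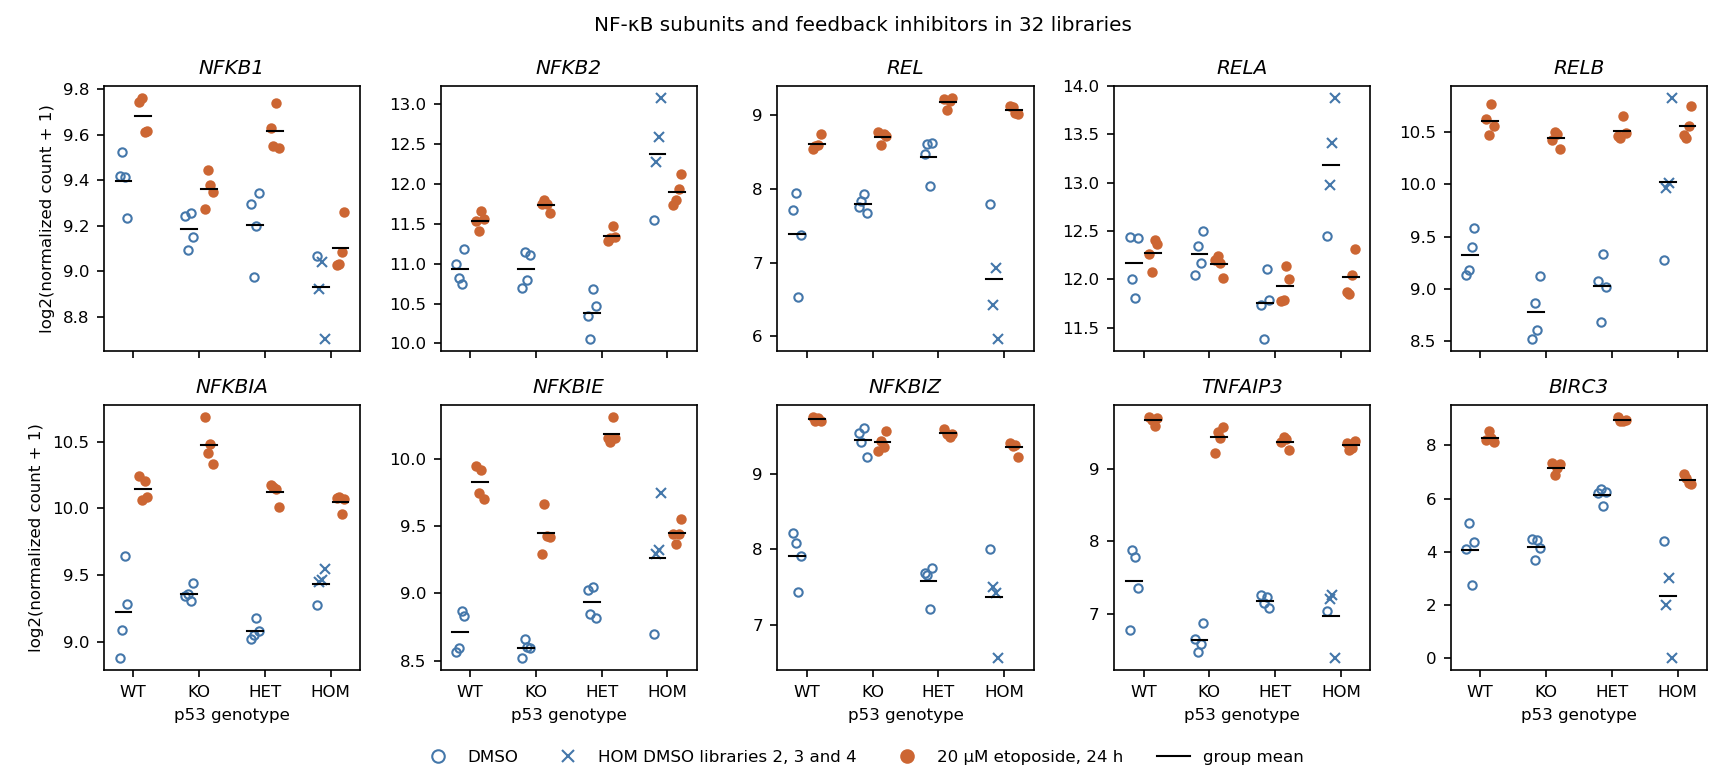
Level of each gene in all 32 libraries, as log2(normalized count + 1), by p53 genotype. Open circles are DMSO, filled circles are etoposide, crosses are HOM DMSO libraries 2, 3 and 4, and bars are group means. TNFAIP3, NFKBIA and BIRC3 were higher in every etoposide library than in any DMSO library of the same genotype, and NFKBIZ in KO cells was already high in DMSO.

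Some markers of other cell types moved with etoposide as well. Of a list of 10 blood cell markers, 4 passed the filter on low values. The summed level of all 10 was 118.6 to 164.9 normalized counts in WT DMSO and 530.4 to 587.9 in WT etoposide libraries. The sums went from between 118.0 and 137.1 to between 238.7 and 270.1 in KO cells, from between 60.34 and 79.61 to between 221.4 and 258.9 in HET cells, and were 192.9 to 518.2 (192.9 in library 1) and 277.8 to 295.3 in HOM cells. CD68 made up most of the sum, with up to 488.6 normalized counts. The myeloid integrin ITGAM rose by 4.60 (log2) in WT, from a mean of 1.191 to 46.6 normalized counts, by 3.47 in KO, 3.42 in HET and 2.47 in HOM cells (4.06 without the 3 libraries). Its DMSO means were 0.7944 in KO, 1.31 in HET and 2.749 in HOM cells, and no DMSO library exceeded 5.257. ITGAM thus passed the filter through etoposide libraries alone, and the 1 added before taking logs weighs on its rises. The pan-leukocyte marker PTPRC (CD45) rose by 1.45, 1.48, 1.52 and 2.35 (1.67 without the 3), to at most 36.41. CD3E stayed at up to 5.783 and HBB at up to 1.931 in all libraries. Of 6 epithelial markers, 1 rose and 1 fell in WT and KO, 2 rose and 1 fell in HET, and 2 rose and 3 fell in HOM cells (2 and 1 without the 3). Among them the cadherin CDH1 rose by 1.81, 2.17, 3.44 and 2.14 (1.72 without the 3), and the keratin KRT14 fell in all 4 genotypes, at -2.38, -1.65, -3.41 and -2.87 (-2.06 without the 3). Of 4 endothelial markers, 2 rose in WT, 3 in KO, 2 in HET and 3 in HOM cells (4 without the 3), and 2 fell in HET cells. Over all genes 20.1%, 18.1%, 17.5% and 37.2% rose and 14.9%, 14.5%, 12.7% and 28.5% fell in WT, KO, HET and HOM cells. The epithelial counts in WT and KO cells were thus near the background. The endothelial marker PECAM1 rose by 1.01, 2.15, 1.72 and 1.69 (1.63 without the 3). The part of such cells or genes in the NF-κB results was not tested.

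TNFAIP3 encodes A20, a ubiquitin-editing enzyme that switches off signalling from TNF and Toll-like receptors to the IκB kinases. Its normalized counts in WT cells were 108.7, 234.5, 219.2 and 163.4 in DMSO and 840.7, 814.8, 775.1 and 831.8 in etoposide. In KO cells they were 99.28, 87.81, 95.03 and 115.8 in DMSO and 598.3, 729.4, 690.0 and 765.9 in etoposide. Every etoposide library was above every DMSO library in both genotypes, and the 4 WT etoposide libraries were above all others. In HET cells the counts went from 152.2, 140.5, 148.7 and 134.5 to 662.1, 695.1, 679.2 and 611.3. In HOM cells they went from 130.0, 146.4, 152.4 and 82.82 to 658.5, 612.7, 627.4 and 669.2. TNFAIP3 thus rose in all 4 genotypes, by 2.22 (log2, SE 0.17, adjusted p = 9.30e-12) in WT and 2.80 (SE 0.17, adjusted p = 1.16e-13) in KO cells. The rise was 2.19 in HET and 2.36 in HOM cells (2.29 without the 3 HOM DMSO libraries). In order of group means, KO, HOM, HET and WT cells in DMSO overlapped with their neighbours, as did HOM, HET and KO cells in etoposide, and WT cells in etoposide lay above.

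BIRC3 encodes cIAP2, a ubiquitin ligase that protects cells from TNF-driven death and helps to keep the non-canonical kinase NIK low. It was nearly silent in DMSO, with 16.20, 32.74, 5.793 and 19.41 normalized counts in WT cells, and reached 289.7, 367.3, 309.2 and 275.6 in etoposide. KO cells went from 21.41, 11.78, 20.91 and 16.70 to 162.3, 116.3, 140.4 and 154.7. The WT and KO ranges overlapped in DMSO and did not overlap in etoposide. HET cells started higher, at 72.58, 81.55, 51.62 and 75.22, and ended highest, at 531.7, 475.7, 484.5 and 494.7. HOM cells had 19.92, 2.987, 7.009 and 0 in DMSO and 118.7, 107.1, 95.87 and 91.84 in etoposide. The level in etoposide therefore ran from HOM and KO, whose ranges overlapped, through WT to HET. BIRC3 rose by 4.20 (log2, SE 0.51, adjusted p = 6.25e-08) in WT, 2.97 (adjusted p = 2.14e-05) in KO, 2.82 (adjusted p = 3.74e-05) in HET and 4.35 (adjusted p = 1.58e-08) in HOM cells. Without HOM DMSO libraries 2, 3 and 4, which hold its lowest counts, the rise in HOM cells was 2.31 (SE 0.44, adjusted p = 1.07e-04). All changes are on the log2(normalized count + 1) scale, where adding 1 pulls the ratio of low counts towards 1. The means of logs are also sensitive to single low libraries, so these values are no lower limits: the fitted rises of BIRC3 correspond to 18.38-fold in WT and 20.43-fold in HOM cells, and the ratios of mean normalized counts were 16.75 and 13.82.

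NFKBIA encodes IκBα, the best-studied inhibitor, which is degraded when the pathway is switched on and then made anew. Its normalized counts in WT cells were 468.9, 542.4, 799.5 and 622.0 in DMSO and 1212, 1069, 1179 and 1086 in etoposide. All 4 etoposide libraries exceeded all 4 DMSO libraries in each genotype. The rise was 0.93 (log2, SE 0.11, adjusted p = 2.98e-08) in WT, 1.12 (SE 0.11, adjusted p = 1.27e-09) in KO and 1.04 (SE 0.11, adjusted p = 3.72e-09) in HET cells. In HOM cells it was 0.62 (SE 0.11, adjusted p = 8.76e-06), 0.78 without the 3 libraries, and 0.56, just under 1.5-fold, without HOM DMSO replicate 1. The highest group was KO in etoposide, at 1646, 1368, 1431 and 1289, above every library of the other 7 groups. NFKBIE encodes IκBε, a slower member of the same family. It went from 377.4 to 465.4 normalized counts in WT DMSO libraries to 831.8 to 986.8 in etoposide, a rise of 1.11 (SE 0.13, adjusted p = 5.25e-08). It rose by 0.85 (SE 0.13, adjusted p = 5.94e-06) in KO and 1.25 (SE 0.13, adjusted p = 7.25e-09) in HET cells, whose etoposide libraries, at 1113 to 1266, were the highest of all groups. In HOM cells the change was 0.19 (SE 0.13, adjusted p = 2.04e-01) with all libraries and 0.75 (adjusted p = 6.23e-05) without the 3.

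NFKBIZ encodes IκBζ, a nuclear IκB family member that acts as a cofactor of p50 at a subset of inflammatory genes. Its counts in WT cells went from 295.5, 270.8, 171.9 and 239.0 in DMSO to 857.5, 826.9, 850.0 and 826.0 in etoposide. In KO cells they were 744.6, 682.2, 773.6 and 595.8 in DMSO and 631.5, 691.2, 652.7 and 755.8 in etoposide. KO cells without drug were thus in the range that HET and HOM cells reached with it, and the KO groups overlapped. HET cells went from 205.5, 201.3, 147.0 and 215.0 to 773.0, 736.1, 717.3 and 738.2, and HOM cells from 255.8, 180.7, 170.0 and 93.44 to 678.3, 661.4, 667.3 and 596.9. NFKBIZ rose by 1.81 (log2, SE 0.19, adjusted p = 3.18e-09) in WT, 1.96 (SE 0.19, adjusted p = 7.50e-10) in HET and 1.97 (SE 0.19, adjusted p = 3.39e-10; 1.34 without the 3 libraries) in HOM cells. In KO cells the change was -0.03 (SE 0.19, adjusted p = 9.06e-01, interval -0.41 to 0.35).

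Of the subunits, RELB, the partner of p52, NFKB2 and REL rose in WT, KO and HET cells. The normalized counts of RELB in WT cells were 562.3, 578.7, 674.9 and 768.1 in DMSO and 1578, 1419, 1739 and 1504 in etoposide, and the groups did not overlap. RELB rose by 1.28 (log2, SE 0.19, adjusted p = 2.40e-06) in WT, 1.66 (SE 0.19, adjusted p = 4.04e-08) in KO and 1.48 (SE 0.19, adjusted p = 2.34e-07) in HET cells. In etoposide its 4 group means were close, between 1388 and 1560, and their ranges overlapped. NFKB2, which encodes p100 and its product p52, had 2044, 1805, 1718 and 2326 normalized counts in WT DMSO and 2953, 2704, 3229 and 3020 in WT etoposide libraries. It rose by 0.60 (SE 0.19, adjusted p = 9.26e-03) in WT, 0.79 (adjusted p = 1.00e-03) in KO and 0.96 (adjusted p = 1.06e-04) in HET cells. The WT value sat at the 1.5-fold limit and fell below it without WT DMSO replicate 2 (0.56), WT DMSO replicate 3 (0.54) or WT etoposide replicate 3 (0.56).

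REL, which encodes c-Rel, the subunit best known from lymphocytes, went from 209.7, 246.0, 91.73 and 164.4 normalized counts in WT DMSO to 372.0, 381.3, 384.1 and 427.0 in WT etoposide libraries. The DMSO libraries varied more (SD 66.46) than the etoposide libraries (SD 24.45), and the groups did not overlap. REL rose by 1.22 (log2, SE 0.25, adjusted p = 1.89e-04) in WT, 0.90 (adjusted p = 4.12e-03) in KO and 0.74 (adjusted p = 1.66e-02) in HET cells. The HET rise was not called without HET DMSO replicate 3 (0.61, adjusted p = 7.18e-02). NFKB1, which encodes p105 and its product p50, did not reach 1.5-fold in any genotype: its change was 0.28 (SE 0.09, adjusted p = 1.15e-02) in WT, 0.18 (adjusted p = 1.16e-01) in KO, 0.41 (adjusted p = 5.49e-04) in HET and 0.17 (adjusted p = 9.66e-02; 0.03 without the 3 libraries) in HOM cells. Under total-count scaling it was called in HET (0.60) and HOM (1.18). Even so, its 4 WT etoposide libraries (782.1 to 866.0) were all above the 4 WT DMSO libraries (601.6 to 735.3). RELA, the main activating subunit, had 5561, 4111, 3595 and 5529 normalized counts in WT DMSO and 4903, 4315, 5419 and 5261 in WT etoposide libraries, which overlapped. Its change was 0.10 (SE 0.20, adjusted p = 6.97e-01, interval -0.31 to 0.51) in WT, -0.11 (interval -0.52 to 0.30) in KO and 0.17 (interval -0.23 to 0.58) in HET cells.

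**Figure D3:**
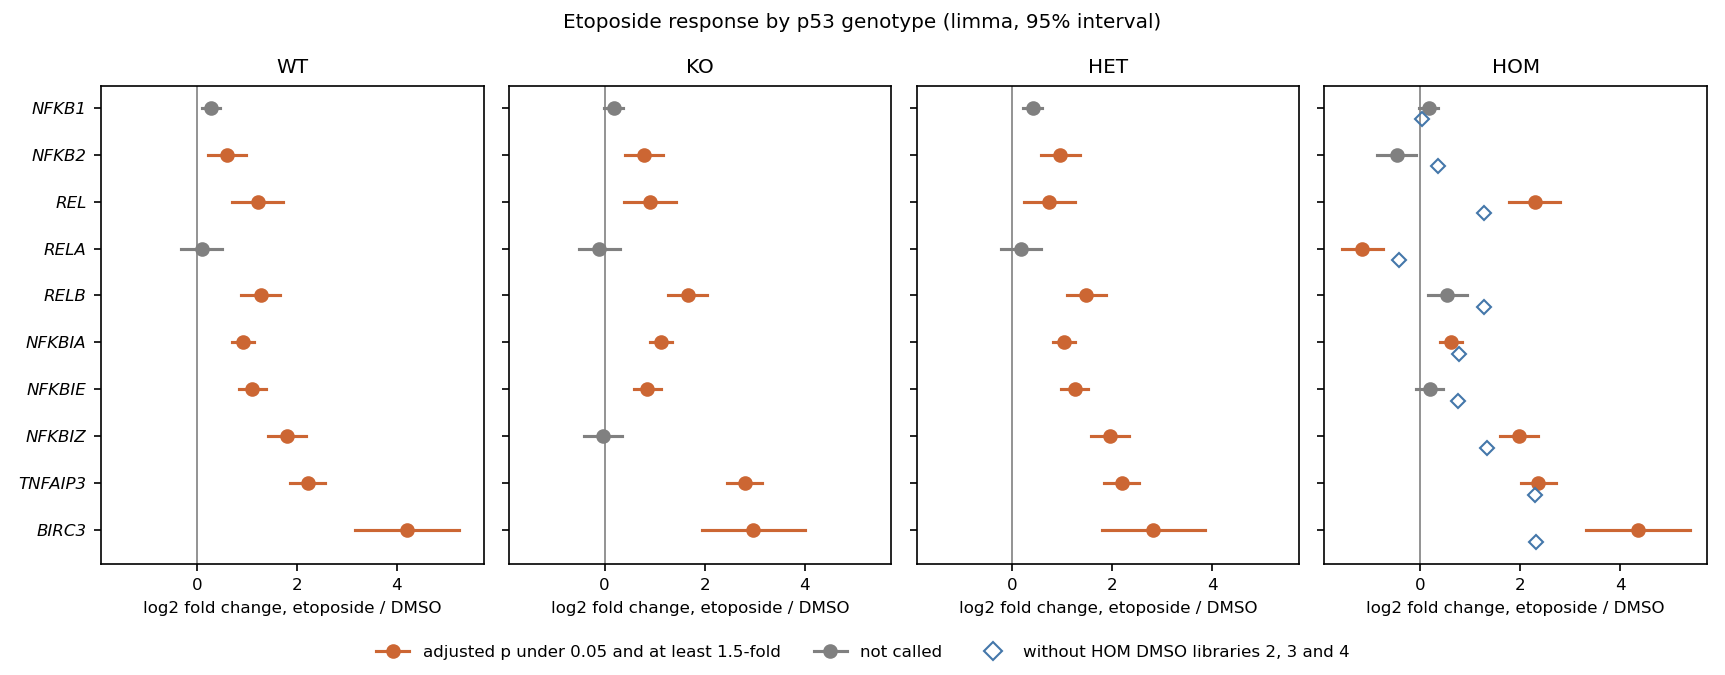
Etoposide minus DMSO for each gene and p53 genotype, as log2 fold change with the 95% interval from limma. Orange marks a call (adjusted p below 0.05 and at least 1.5-fold), grey no call, and open diamonds the HOM values without DMSO libraries 2, 3 and 4. RELA lies between -0.11 and 0.17 in WT, KO and HET cells, with intervals that span 0, NFKB1 lies between 0.18 and 0.41 there, NFKBIZ lies at -0.03 in KO cells, and BIRC3 reaches 4.20 in WT cells.

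The HOM response depended on which DMSO libraries were used. With all 4, RELA fell by 1.16 (log2, SE 0.20, adjusted p = 7.66e-06), and NFKB2, at -0.47 (adjusted p = 2.38e-02), and RELB, at 0.54 (adjusted p = 1.25e-02), missed the 1.5-fold limit. RELA stood at 5605 normalized counts in HOM DMSO library 1 and at 8070, 10870 and 15030 in libraries 2, 3 and 4, against 3751, 3695, 4227 and 5093 in etoposide. NFKB2 was likewise lowest in library 1, at 2999 against 4940, 6135 and 8601, and so was RELB, at 619.5 against 996.3, 1034 and 1812. REL was highest there, at 222.2 in library 1 and 85.14, 120.9 and 61.59 in the others. Without the 3 libraries the HOM change was -0.43 for RELA (adjusted p = 1.18e-01), 0.35 for NFKB2 (adjusted p = 1.21e-01), 1.28 for RELB (adjusted p = 6.48e-06) and 1.27 for REL (adjusted p = 4.75e-04; 2.29 with all 4). RELB was also called without HOM DMSO replicate 4 alone (0.81), and NFKB2 was called as falling without replicate 1 alone (-0.74). The fit without the 3 libraries leaves 1 HOM DMSO library, whose spread is assumed to equal that of the other groups. Under total-count scaling RELA was not called (-0.15), while RELB (1.55) and NFKBIE (1.20) were.

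**Figure D4:**
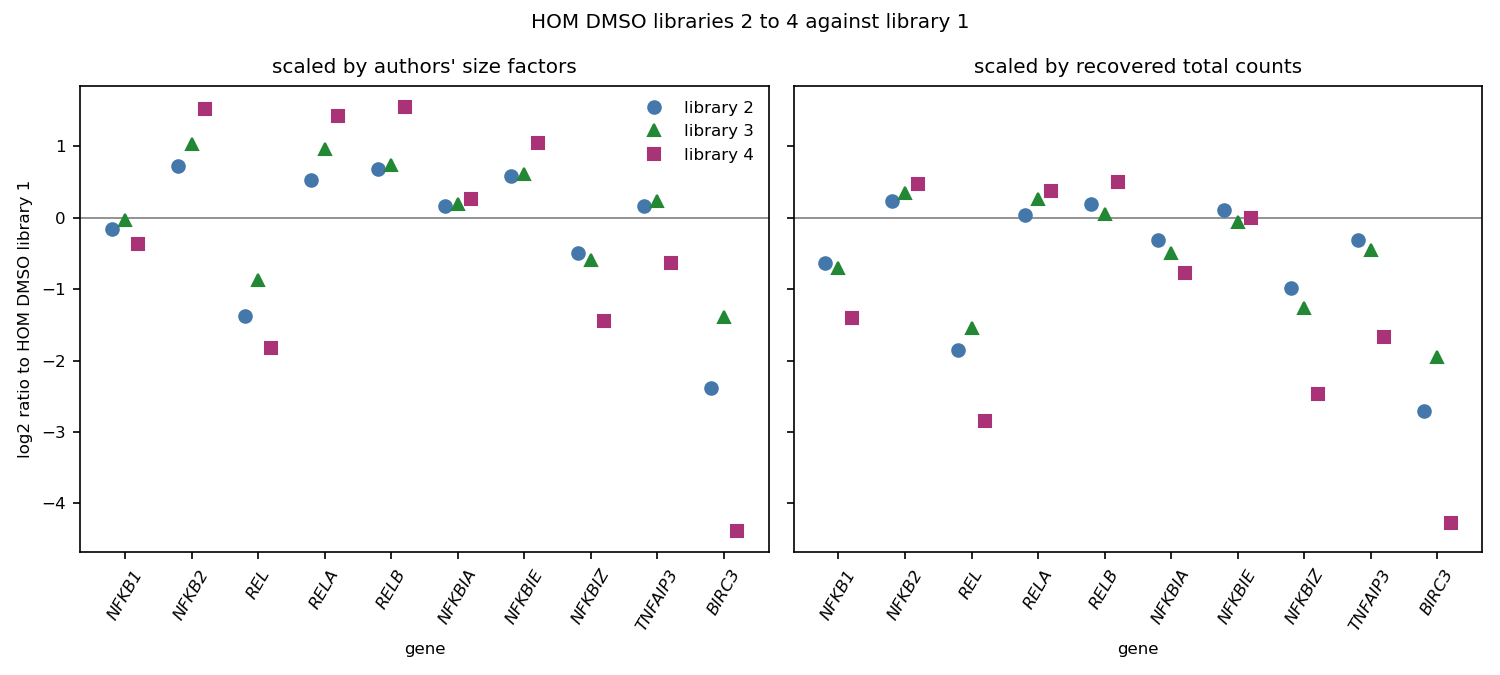
Log2 ratio of HOM DMSO libraries 2, 3 and 4 to HOM DMSO library 1 for each gene, with the authors' size factors (left) and with total counts (right). On the left RELA, NFKB2, RELB, NFKBIA and NFKBIE lie above 0 and NFKB1, REL, NFKBIZ and BIRC3 below 0 in all 3 libraries. On the right NFKB1, REL, NFKBIA, NFKBIZ, TNFAIP3 and BIRC3 lie below 0 in all 3 libraries, with BIRC3 in library 4 at -4.28.

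Without drug, KO and WT cells differed in 2 of the 10 genes (8.35% of all genes were called in either direction). NFKBIZ was higher in KO than in WT cells by 1.53 (log2, SE 0.19, adjusted p = 4.42e-07), a ratio of means of 2.86, and every KO library (595.8 to 773.6) exceeded every WT library (171.9 to 295.5). The value lay between 1.38 and 1.64 in the alternatives. The authors' deposited table gave 1.52 (SE 0.16, adjusted p = 3.08e-19) for this difference. TNFAIP3 was lower in KO cells, with a difference of -0.81 (SE 0.17, adjusted p = 1.22e-03) and WT replicate 1 inside the KO range, and it missed the threshold when only these 2 groups were fitted (adjusted p = 5.57e-02). RELB was -0.55 (adjusted p = 5.82e-02) and reached a call without KO DMSO replicate 4 (-0.66). The other 7 genes were between -0.21 and 0.41.

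In DMSO, HET differed from WT cells in 2 of the 10 genes (32.5% of all genes), both higher (16.1%). BIRC3 was higher by 2.06 (log2, SE 0.51, adjusted p = 1.60e-03) and REL by 1.04 (SE 0.25, adjusted p = 1.30e-03). The HET libraries held 354.2, 390.4, 261.6 and 392.0 normalized counts of REL, all above the 4 WT libraries. NFKB2 was at -0.55 (adjusted p = 1.79e-02), short of 1.5-fold, and was called without WT DMSO replicate 2 (-0.59) or 3 (-0.61) or HET DMSO replicate 3 (-0.65). HOM differed from WT cells in DMSO in 5 of the 10 genes (47.6% of all genes), with NFKB2 (1.43), RELA (1.01) and RELB (0.69) higher and REL (-0.61) and BIRC3 (-1.73) lower. Without HOM DMSO libraries 2, 3 and 4 only NFKB2 was called, at 0.61 (SE 0.18, adjusted p = 4.38e-02; 4.54% of all genes), RELA was at 0.28, and REL (0.41), RELB (-0.05) and BIRC3 (0.31) changed sign. The fall of REL was also lost without WT DMSO replicate 1 (-0.50), 2 (-0.43) or 4 (-0.62, adjusted p = 5.22e-02) or HOM DMSO replicate 2 (-0.49) or 4 (-0.34), and the rise of RELB without HOM DMSO replicate 4 (0.43). In the reverse direction, NFKBIE was called as higher without WT DMSO replicate 3 (0.60) or 4 (0.59) or HOM DMSO replicate 1 (0.74; 0.55 with all libraries). NFKBIZ was called as lower without WT DMSO replicate 3 (-0.70) or HOM DMSO replicate 1 (-0.75; -0.54 with all), and TNFAIP3 without WT DMSO replicate 1 (-0.70; -0.48 with all).

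In etoposide, 0 of the 10 genes were called between KO and WT cells (26.7% of all genes), although 4 had an unadjusted p below 0.05 (limma) and voom called 1. In KO minus WT cells NFKB1 was at -0.32 (log2, adjusted p = 5.96e-03), NFKBIA at 0.33 (adjusted p = 1.48e-02) and NFKBIE at -0.38 (adjusted p = 2.42e-02). All of them fell short of 1.5-fold, and BIRC3 made the 4. BIRC3 was at -1.11 in KO minus WT cells (log2, SE 0.51, adjusted p = 8.45e-02), with no overlap between 116.3 to 162.3 and 275.6 to 367.3 normalized counts. The authors' deposited table gave -1.11 (SE 0.19, adjusted p = 3.76e-08) for it. The limma fit over all groups uses a single variance for BIRC3, including its near-silent DMSO groups. When only KO and WT etoposide libraries were fitted the difference was -1.11 with an adjusted p of 3.36e-06. Between HOM and WT cells 1 gene was called (28.6% of all genes): BIRC3 was lower in HOM cells, at -1.58 (SE 0.51, adjusted p = 1.32e-02), and the authors' deposited table gave -1.59 (SE 0.19, adjusted p = 2.14e-15). NFKB1 was -0.58 (SE 0.09, adjusted p = 6.33e-06) in the same comparison, with HOM libraries at 521.6 to 611.4 and WT libraries at 782.1 to 866.0 normalized counts. It passed 1.5-fold without WT etoposide replicate 3 (-0.60) or 4 (-0.60) or HOM etoposide replicate 4 (-0.63).

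HET and WT cells in etoposide differed in 0 of the 10 genes (23.3% of all genes), with 2 at an unadjusted p below 0.05 (limma) and 1 called by voom. These 2 were REL, 0.57 (SE 0.25, adjusted p = 7.74e-02) higher in HET cells, and NFKBIE, 0.36 (SE 0.13, adjusted p = 3.74e-02) higher. BIRC3, not among them, was 0.68 (SE 0.51, adjusted p = 2.98e-01) higher in HET cells. Its adjusted p was 1.88e-05 when only the HET and WT etoposide libraries were fitted. HOM and KO cells in etoposide differed in 0 of the 10 genes (12.1% of all genes), with 2 at an unadjusted p below 0.05 (limma) and 0 called by voom. Those were NFKBIA, at -0.43 (SE 0.11, adjusted p = 4.02e-03), and NFKB1, at -0.26 (SE 0.09, adjusted p = 4.17e-02). For BIRC3 the HOM minus KO difference was -0.46 with an interval of -1.50 to 0.57.

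Responses were compared between the lines as the difference between 2 etoposide responses. NFKBIZ was the only one of the 10 whose response differed between KO and WT cells (15.2% of all genes), by -1.84 (log2, SE 0.26, adjusted p = 5.58e-06), and it lay between -1.94 and -1.68 in the alternatives. KO minus WT was 1.53 in DMSO and -0.30 (SE 0.19, adjusted p = 2.11e-01) in etoposide. TNFAIP3, at 0.57 (SE 0.24, adjusted p = 1.05e-01), was called without WT DMSO replicate 1 alone (0.80). HET and WT responses differed in 0 genes (4.75% of all genes), with 0 at an unadjusted p below 0.05 (limma) and 1, BIRC3 at -1.40, called by voom. HOM and WT responses differed in 5 genes (50.2% of all genes), with REL at 1.07 and NFKB2 (-1.07), RELA (-1.26), RELB (-0.74) and NFKBIE (-0.93) lower. RELB lost its call without HOM DMSO replicate 4 (-0.47). Without HOM DMSO libraries 2, 3 and 4 none of these 5 was called, and BIRC3 was, at -1.89 (adjusted p = 8.83e-03; 18.4% of all genes). These comparisons share the WT libraries.

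Genes that carry the signal to NF-κB or regulate it were compared through a list of 53, of which 51 were tested. It held receptors, adaptors, kinases and ubiquitin enzymes, and also inhibitors and cofactors such as NFKBIB and BCL3. In this list 13 rose and 3 fell after etoposide in WT, 14 and 6 in KO, 9 and 2 in HET and 22 and 20 in HOM cells (12 and 12 without the 3 libraries). Rises over all genes were 20.1%, 18.1%, 17.5% and 37.2% (20.9% without the 3) and falls 14.9%, 14.5%, 12.7% and 28.5% (17.3%), so that the HET share of rises is at the background. The WT and HOM shares of rises lie only a little above it. The median change of the list was 0.23, 0.11, 0.08 and 0.25 (0.10 without the 3), beside 0.05, 0.05, 0.01 and 0.16 (0.06 without the 3) over all genes. TRAF1, a TNF receptor adaptor, rose by 2.79 (log2) in WT, 3.19 in KO, 3.64 in HET and 2.09 in HOM cells (2.74 without the 3 libraries), reaching a mean of 308.2 normalized counts in WT etoposide libraries. TLR3, the receptor for double-stranded RNA, rose by 3.36 in WT, 1.01 in KO, 1.71 in HET and 3.46 in HOM cells (2.65 without the 3 libraries). IRAK2, a kinase of the Toll-like receptor pathway, rose by 2.19 in WT, 2.34 in KO, 2.39 in HET and 2.80 in HOM cells (2.27 without the 3). ERC1, a regulatory part of the IκB kinase complex, fell by 0.79 in WT, 1.76 in KO, 0.62 in HET and 1.66 in HOM cells (1.84 without the 3). Its levels did not overlap between DMSO (1053 to 1179 normalized counts) and etoposide (624.5 to 672.3) in WT cells. BCL3, an IκB family cofactor of p50 and p52, fell by 2.11 and SHARPIN, a subunit of the linear ubiquitin ligase, by 1.97 in HOM cells, by 1.37 and 1.06 without the 3 libraries. SHARPIN also fell by 0.68 in WT and 0.71 in KO cells.

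Of a list of 54 textbook NF-κB target genes, 42 were tested. The list was chosen with earlier results of these data known. A gene nearly silent in DMSO could pass the filter on low values through its etoposide libraries alone. The counts of rises may therefore favour induced genes, and they describe the list without being independent support. Etoposide raised 28 and lowered 0 in WT cells, 27 and 2 in KO, 29 and 0 in HET, and 24 and 9 in HOM cells (22 and 7 without the 3 libraries), against the shares of all genes just given. The median changes were 1.17, 1.23, 1.10 and 1.07 (1.01 without the 3), beside the medians of 0.05, 0.05, 0.01 and 0.16 (0.06 without the 3) over all genes. BCL2A1, a survival factor of the BCL2 family, rose by 5.56 (log2) in WT, 3.25 in KO, 4.77 in HET and 3.41 in HOM cells (2.57 without the 3). Its DMSO means were 2.641 normalized counts in WT, 0.2433 in KO and 1.966 in HET cells. The matrix protease MMP3 rose by 5.05 in WT cells, from a mean of 19.84 to 616.8 normalized counts, and by 2.55 in KO, 6.03 in HET and 1.99 in HOM cells (2.30 without the 3). The neutrophil chemokine CXCL8 rose by 6.09 in KO cells, from a mean of 4.704 to 273.9, and by 2.15 in WT, 3.77 in HET and 6.28 in HOM cells (4.91 without the 3 libraries). The cytokine IL1A rose by 3.15 in WT, 4.69 in KO, 3.37 in HET and 4.55 in HOM cells (3.18 without the 3). Its mean in KO DMSO libraries was 0.7185, and that of MMP3 in HET DMSO libraries was 3.065. Such DMSO means, like those of BCL2A1, are near or below 3 counts. The 1 added before taking logs therefore weighs on the size of these rises and on their order between genotypes. The prostaglandin synthase PTGS2 rose by 3.03, 2.42, 2.02 and 4.89 (3.62 without the 3). BCL2L1, which encodes the survival factor BCL-XL, and NINJ1, a membrane rupture protein, fell by 0.62 and 0.92 in KO cells and by 1.93 and 1.55 in HOM cells (by 1.28 and 0.72 without the 3), while BCL2L1 rose by 0.74 in HET cells. Between genotypes in etoposide, BCL2A1 was lower than in WT cells, at -3.75 in KO and -2.63 in HOM cells, and MMP3 was at -2.90 in HOM cells. The interferon-inducible GTPase GBP1 was higher than in WT cells by 1.44 in KO and 2.77 in HOM cells.

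Per kilobase of transcript, using the mean length of the annotated protein-coding transcripts (GENCODE 29), the order of levels in WT DMSO cells was led by RELA, at 1798 normalized counts per kilobase, then NFKB2 at 621.3, NFKBIA at 406.0 and RELB at 285.3. BIRC3 was the lowest, at 4.036, below REL at 26.07 and TNFAIP3 at 57.43. In WT etoposide cells RELA stood at 1904 and NFKB2 at 937.1, followed by NFKBIA at 758.7 and RELB at 689.1. TNFAIP3 (258.2) and NFKBIZ (258.0) came to the same level, and BIRC3 (67.61) to that of REL (57.30). RELA and TNFAIP3 overlap annotated genes on the opposite strand and REL overlaps 2 on its own strand, none of which was in the matrix, and whether reads were assigned by strand was not given in the sources used here.

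For each gene the 3 genes with the most similar pattern were found by Pearson's r over the 8 group means, among 13685 tested genes with a group mean of at least 50 normalized counts. TNFAIP3 was most like the cytokine IL1A (r = 0.993), the growth factor FGF5 (r = 0.993) and IRAK2 (r = 0.986). NFKBIZ was most like the prolactin receptor PRLR (r = 0.991), and NFKB1 like the zinc finger factor KLF6 (r = 0.982). RELA was most like RIC8A (r = 0.994) and NFKB2 like KAT2A (r = 0.994), and both were themselves highest in the HOM DMSO group. These values describe 8 points, and the genes compared share libraries and size factors.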

How the data were processed

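Poly-A RNA libraries of 32 plates of U2OS cells were analysed. Per the submitters' processing notes, the authors used kallisto and DESeq2 with GRCh38, no versions being given. The deposited expression matrix holds log2-like values with a floor of 4.43, and its form and the deposited mean signal per gene showed it to be a variance-stabilizing transform. Normalized counts were recovered by inverting it (largest relative difference to the authors' deposited mean signal 4.4e-14), and whole counts came out within 0.01 for 100% of values. The authors' deposited tables of comparisons give a log2 fold change, its standard error, a test statistic score and p-values per gene, and were only quoted. The values recovered here are an inversion, so the count models edgeR and DESeq2 were not run.

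Tests used limma 3.58.1 (R 4.3.3) with an intensity trend on log2(normalized count + 1), over the 16824 genes at 10 or more normalized counts in 4 or more libraries, with all 32 libraries and a mean per group. Each of 14 contrasts was adjusted by Benjamini-Hochberg over all genes, and a call needed an adjusted p below 0.05 and a change of at least 1.5-fold. The test was checked on simulated data. The depth was 8051382 to 24186765 counts per library, and 3 counts correspond to 2.30 to 6.37 normalized counts. The members and the lists of upstream, target and marker genes were chosen with earlier results of these data known. The 10 members were always named, and from each list up to 2 of the largest called rises and falls per comparison; the other genes in the text serve as checks, or are markers or neighbours. Same-numbered libraries of different groups were not treated as pairs, because their deviations did not correlate over 0.1 in all 4 numbers in any of 28 pairs of groups (r from -0.196 to 0.364). Promoter windows and annotation came from RefSeq and GENCODE 29 tables (GRCh38). The mRNA of the targeted gene and 1 blood marker are not reported here. The alternatives were another pseudocount (5), filters, scalings, weights, voom, the deposited log2 values, the compared groups alone, a replicate block, each library left out in turn, and HOM DMSO libraries 2, 3 and 4 left out together.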

Additional observations from a re-analysis of the deposited data

Results flagged for a closer look

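In the response differences, 6 results passed the test of the difference itself. NFKBIZ responded less in KO than in WT cells, by -1.84 (log2), in a comparison where 15.2% of all genes were called. The response of HOM cells differed from that of WT cells for NFKB2 (-1.07), REL (1.07), RELA (-1.26), RELB (-0.74) and NFKBIE (-0.93), which is 5 of 10 where 50.2% of all genes were called, and none of these 5 was called without HOM DMSO libraries 2, 3 and 4. In 2 of 80 groups of 4 libraries, a library lay far from the other 3: NFKBIA stood at 1032 normalized counts in a HET etoposide library against 1135 to 1155 in the others, and at 995.5 in a HOM etoposide library against 1075 to 1087. Chance alone flags about 1 group in 20.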

How the results depend on the processing

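The number of the 10 genes called kept within 1.5 times its value for the etoposide response of each genotype under every alternative: 7 to 8 in WT, 7 in KO, 7 to 9 in HET and 6 to 8 in HOM cells. These counts add rises and falls, and in HOM cells the genes behind them changed. Under total-count scaling, for example, the fall of RELA was not called, while rises of RELB and NFKBIE were. Leaving out each replicate in turn gave 7 to 8 in WT, 7 to 7 in KO, 7 to 8 in HET and 6 to 7 in HOM cells. It gave 2 to 3 for KO minus WT, 2 to 3 for HET minus WT and 3 to 7 for HOM minus WT in DMSO, 0 to 0 for KO and HET minus WT and for HOM minus KO in etoposide, 1 to 2 for HOM minus WT in etoposide, and 1 to 2, 0 to 0 and 4 to 5 for the response difference of KO, HET and HOM from WT. A replicate block moved no count, for example 8 in WT and 7 in KO cells, and 7 of 32 libraries correlated best with their own number.

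Counts that moved were as follows. KO minus WT in DMSO went from 2 to 1 with the compared groups only. HOM minus WT in DMSO went from 5 to 3 with the deposited variance-stabilized values, 1 with the compared groups only, 2 with quantile normalization and 1 without HOM DMSO libraries 2, 3 and 4. KO minus WT in etoposide went from 0 to 1, BIRC3, with pseudocount 5, the variance-stabilized values, the compared groups only, quantile normalization, array weights or voom. HET minus WT in etoposide went from 0 to 1 with the variance-stabilized values, the compared groups only, total-count scaling or voom and to 2 with array weights. HOM minus WT in etoposide went from 1 to 2 with quantile normalization or array weights. The response difference of KO went from 1 to 2 with the variance-stabilized values or array weights, that of HET from 0 to 1 with array weights or voom, and that of HOM from 5 to 3 with the compared groups only, 2 with quantile normalization and 1 without the 3 libraries. The compared groups alone have fewer samples, and for the other settings the cause was not tested.

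Among single genes, 1359 values outside the leave-one-out fits kept their direction and side of the threshold, 31 lost a call, 32 gained one and 8 changed sign. Total-count scaling turned the HOM response difference of NFKB1 to 0.67 and of RELB to 0.04. Without the 3 libraries HOM minus WT in DMSO was 0.41 for REL, -0.05 for RELB and 0.31 for BIRC3, and the response difference of HOM was 0.00 for RELB and -1.89 for BIRC3, which stood at -0.73 with the variance-stabilized values. Total-count scaling also moved the split of higher and lower genes to 4389 and 1485 in WT, 4805 and 1189 in KO and 3753 and 1266 in HET cells after etoposide, and to 556 and 7708 for HOM minus WT in DMSO. Low counts limit BIRC3 in DMSO, where its 4 HOM libraries held 25 counts in all.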

Other observations

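BIRC3 lies on chromosome 11, 102317450 to 102339403 (GRCh38, plus strand), beside BIRC2 and a cluster of matrix metalloprotease genes. These neighbours were looked at after the values of BIRC3 were seen. Of 17 tested genes within 1 Mb of BIRC3, 11 were higher and 2 lower in HET than in WT cells in DMSO (16.1% and 16.4% of all genes), with a median of 1.23 (log2), and 7 were higher and 2 lower in etoposide (10.1% and 13.2%), with a median of 0.78. BIRC2, which encodes cIAP1, had a mean of 1043 normalized counts (769.0 to 1389) in HET DMSO libraries against 309.9 (215.3 to 418.5) in WT, a difference of 1.76 (SE 0.25, adjusted p = 2.03e-06, limma). The proteases MMP8, MMP13 and MMP7 were higher by 4.73, 4.06 and 2.95, while MMP3 (-2.28) and MMP10 (-2.22) were lower. In KO minus WT cells in DMSO, 2 of the 17 were higher and 1 lower (2.75% and 5.59% of all genes). In HOM minus WT cells in DMSO 0 were higher and 8 lower (20% and 27.6% of all genes). Without HOM DMSO libraries 2, 3 and 4, 0 were higher and 1 was lower (1.03% and 3.51% of all genes).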
